A study of Homo sapiens with 2 samples.

Results

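A set of 10 genes of the c-Jun N-terminal kinase (JNK) cascade and its scaffolds were followed in HK-2 cells, an immortalised human proximal tubule line: the scaffolds MAPK8IP1, MAPK8IP2, MAPK8IP3 and SPAG9, the kinases MAPK8, MAPK9 and MAPK10, and the upstream kinases MAP2K4, MAP2K7 and MAP3K11. These 10 genes, out of 58302 in the count table, were matched by symbol. The set was chosen on one measured value, the higher count of MAPK8IP2 in the library labelled Ad-Bmal1, so that difference is a description and supports nothing further. All 10 members reached 1 CPM (counts-per-million, after scaling for library size) in at least 1 library and so passed the filter on low values, as did 13231 genes in all.

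By its label, the Ad-Bmal1 library came from cells infected for 24 h with an adenovirus carrying the Bmal1 coding sequence. By its label, the Ad-GFP library came from cells infected for the same time with an adenovirus carrying green fluorescent protein. Both cultures are thus described as virus-infected and grown in medium with serum, and no uninfected library was analysed here. In the labels HK-2 is spelled out as human kidney 3 for the Ad-Bmal1 culture and as human kidney 2 for the Ad-GFP culture. The labels name neither the promoter of the vectors nor the species of the Bmal1 sequence. With 1 library per group there was no replicate, SD or test, and every difference below is between these 2 libraries rather than between the vectors.

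JNK signalling is a relay in which a MAP3K phosphorylates a MAP2K, which phosphorylates a JNK, which then acts on transcription factors such as c-Jun. JNK-interacting proteins (JIPs) hold successive kinases of the relay together and also link cargo to kinesin motors. In the kidney tubule the pathway is known as a response to stress such as oxidants, toxins and inflammatory cytokines. Because phosphorylation switches these kinases on, transcript counts carry no measure of JNK activity.

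Promoters are shown for the scaffold on which the set was chosen, for a second scaffold, and for the kinase with the next largest ratio. Each runs from 250 bases before to 50 bases after a RefSeq start on GRCh38.p14, with matches to any of 3 motifs in capitals. The MAPK8IP2 window is chr22:50600543-50600842 on the plus strand and lies within the annotated span of CHKB on the other strand. The MAPK8IP3 window is chr16:1705945-1706244 on the plus strand. The MAPK10 window is chr4:86360004-86360303 on the minus strand.
MAPK8IP2: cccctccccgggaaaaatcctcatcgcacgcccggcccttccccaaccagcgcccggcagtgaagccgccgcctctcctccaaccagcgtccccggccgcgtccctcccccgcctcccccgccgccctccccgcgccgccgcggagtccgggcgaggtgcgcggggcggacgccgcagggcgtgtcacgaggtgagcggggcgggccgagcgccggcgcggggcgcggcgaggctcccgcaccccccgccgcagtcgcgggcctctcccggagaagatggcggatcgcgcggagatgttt
MAPK8IP3: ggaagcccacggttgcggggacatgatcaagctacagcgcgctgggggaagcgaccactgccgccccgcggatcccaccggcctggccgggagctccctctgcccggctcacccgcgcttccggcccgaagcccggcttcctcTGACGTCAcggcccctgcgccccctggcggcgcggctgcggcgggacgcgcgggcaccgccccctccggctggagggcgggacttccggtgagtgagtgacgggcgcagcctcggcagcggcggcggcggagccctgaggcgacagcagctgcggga
MAPK10: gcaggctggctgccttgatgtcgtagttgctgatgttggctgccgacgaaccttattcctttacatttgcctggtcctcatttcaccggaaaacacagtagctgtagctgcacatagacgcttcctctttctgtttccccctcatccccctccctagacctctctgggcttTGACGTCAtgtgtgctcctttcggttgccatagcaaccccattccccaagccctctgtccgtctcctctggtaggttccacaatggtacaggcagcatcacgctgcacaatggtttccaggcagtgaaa

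The motifs, searched on both strands, were the E-box CACGTG bound by BMAL1 and CLOCK, the AP-1 site TGACTCA and the cyclic AMP element TGACGTCA. Of 13 RefSeq promoters found for 9 members, none held CACGTG, which occurred in 7.26% of 35116 promoters of the same length. TGACGTCA occurred in the MAPK8IP3 window starting at position -107 and in the MAPK10 window shown starting at position -79, against 1.85% of all promoters. Among the 13 windows only these 2 held TGACGTCA, and both are among the 3 shown, so the display over-represents it. TGACTCA, read as TGAGTCA, occurred in another of the 3 MAPK10 promoters at position -38, against 4.95% of all. The MAPK8IP2 window held none of the 3 motifs and was 78.7% G and C, where the median promoter was 58.7%. MAPK8IP1 was the member with no entry in the promoter table.

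The libraries had 20051735 counts (labelled Ad-Bmal1) and 20032652 counts (labelled Ad-GFP). BMAL1, the gene named for the vector, went against the label, with 133 counts in the library labelled Ad-Bmal1 and 204 in the library labelled Ad-GFP (ratio 0.667, 95% counting interval 0.532 to 0.834). Whether the labels of the libraries are exchanged was not tested, nor whether reads of the vector's Bmal1 sequence are counted under this gene. Exchanged labels would turn over the direction of every ratio given here. Of 12 proximal tubule markers 2 were measured, GGT1 and PDZK1, and LRP2, SLC22A6 and SLC22A8 had no count in either library. Of 9 renal and epithelial markers 7 were measured, with sums of 2778 and 2757 CPM in the libraries labelled Ad-Bmal1 and Ad-GFP, as were all 4 injured tubule markers, with sums of 997 and 1320 CPM. The renal and epithelial sums hide differences in both directions. PAX8, CDH2 and CDH6 had ratios of 1.34, 1.44 and 1.26, while KRT8, KRT18, KRT19 and EPCAM had 0.953, 0.667, 0.911 and 0.907. PAX2 and CDH1 did not reach 1 CPM. Since MAPK8IP2 and MAPK10 are best known from neurons, neuronal markers were examined: 3 of 7 were measured, the list sum was 8.43 CPM in the library labelled Ad-Bmal1 and 8.93 CPM in the other, and STMN2 was at 0 in both. Of 5 islet and neuroendocrine markers 1 was measured, CHGB, with list sums of 1.62 and 2.56 CPM in those libraries, while INS, CHGA, SCG2 and NEUROD1 were at 0. Markers measured in other lists were 4 of 7 for fibroblasts (100.4 CPM summed in the library labelled Ad-Bmal1 against 79.3 in the other), 1 of 5 for endothelium (0.606 against 1.53), and 1 of 6 for leukocytes (20.7 against 21.7, in the same libraries). COL1A1 made up most of the fibroblast sums (84.8 and 63.4 CPM), while DCN went the other way, at a ratio of 0.716 (0.542 to 0.943). CSF1R made up nearly all of the leukocyte sums (20.5 and 21.4 CPM). Of the measured neuronal markers, TUBB3 was at 0.482 (0.248 to 0.896), while SNAP25 and SYP had intervals that included 1. Of 5 hepatocyte markers 2 were measured, and they differed in direction: SERPINA1 had 253 CPM in the library labelled Ad-Bmal1 and 296 in the other, and made up most of the list sums of 263 and 296 CPM, while ALB had 8.33 and 0.444 CPM in those libraries. The other 3, below 1 CPM, were also higher in the library labelled Ad-Bmal1, with 15 and 0 counts for APOA1, 9 and 0 for TTR and 14 and 1 for TF. The part of other cells in the results below was not tested, and in bulk RNA fewer cells of a type and less RNA per cell cannot be told apart.

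MAPK8IP2 was the scaffold that stood apart. This gene encodes JIP2, a scaffold known to bind JNK, MAP2K7 and mixed-lineage kinases such as MAP3K11 (ENSG00000008735, chromosome 22, 50600685 to 50613981, GRCh38). It had 3826 counts (193 CPM) in the library labelled Ad-Bmal1 and 1687 counts (83.2 CPM) in the library labelled Ad-GFP. The ratio was 2.32 with a 95% counting interval of 2.19 to 2.46, or 1.21 on the log2 scale. By ratio it ranked 86 among the 13231 measured genes and 4 among the 5658 with 1000 or more counts in all, counted from the highest. Were the labels exchanged, the ratio would be 0.431 and the same ranks would count from the lowest. The member next below the 2-fold limit was MAPK10, at 1.78.

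The other scaffolds were all within 1.5-fold of equality. MAPK8IP1 (ENSG00000121653, chromosome 11, 45885651 to 45906465), which encodes JIP1, the closest relative of JIP2, had 282 counts in the library labelled Ad-Bmal1 and 312 in the library labelled Ad-GFP. Its ratio was 0.925 (0.784 to 1.09), an interval that included 1. Reads may also fall on its processed pseudogenes MAPK8IP1P1 and MAPK8IP1P2, and the sum of all 3 had a ratio of 0.922 (0.784 to 1.08). MAPK8IP3 (ENSG00000138834, chromosome 16, 1706183 to 1770317), which encodes JIP3, a scaffold of axonal transport, had 867 counts in the library labelled Ad-Bmal1 and 918 in the library labelled Ad-GFP, a ratio of 0.966 (0.880 to 1.06). Its end overlaps NME3 on the opposite strand, which had 713 counts in the library labelled Ad-Bmal1 and 707 in the other, so some reads of either gene may be shared.

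SPAG9 (ENSG00000008294, chromosome 17, 50962174 to 51120865) encodes JIP4, a relative of JIP3 that binds motor proteins on lysosomes and endosomes. It had 907 counts in the library labelled Ad-Bmal1 and 825 in the library labelled Ad-GFP, a ratio of 1.12 (1.02 to 1.24). Its direction rests on the treatment of transcript length, as described below. Summed over MAPK8IP1, MAPK8IP3 and SPAG9, the libraries labelled Ad-Bmal1 and Ad-GFP held 2056 and 2055 counts, a ratio of 1.02 (0.963 to 1.09). The sum of all 4 scaffolds had a ratio of 1.61 (1.54 to 1.68), and thus its excess lay in MAPK8IP2.

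**Figure D1:**
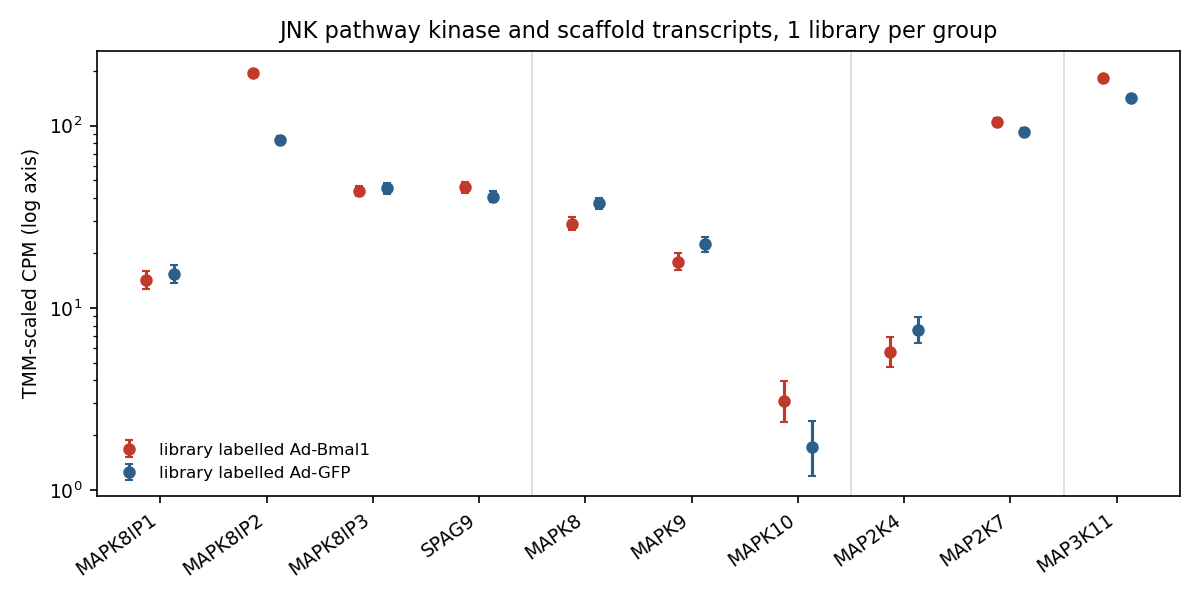
TMM-scaled CPM (log axis) of the 10 members in the library labelled Ad-Bmal1 (red, left of each pair) and the library labelled Ad-GFP (blue, right), with exact 95% Poisson intervals that cover counting error only. MAPK8IP2 stood at 193 CPM against 83.2 CPM, and heights of different genes are not comparable because length is not removed.

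Scaled for length, MAPK8IP2 made up most of the scaffold transcripts in both libraries. Transcripts-per-million values (TPM, computed from the counts and the longest protein-coding transcript) were 121 in the library labelled Ad-Bmal1 and 51.4 in the library labelled Ad-GFP. MAPK8IP3 had 16.4 TPM in the library labelled Ad-Bmal1 and 16.7 TPM in the library labelled Ad-GFP. SPAG9 stood at 11.8 and 10.3 TPM in the same libraries, and MAPK8IP1 at 9.51 and 10.1 TPM. MAPK8IP2 thus held 76.3% of the scaffold TPM in the library labelled Ad-Bmal1 and 58.1% in the library labelled Ad-GFP. As a share of scaffold counts it was 65.0% (Wilson 95% interval 63.8 to 66.3) against 45.1% (43.5 to 46.7). The other 3 scaffolds held 2056 and 2055 counts in the same libraries. The difference in share thus restates the ratio on which the set was chosen and is no further result. The order of the other 3 scaffolds changed with the length used, so only the place of MAPK8IP2 above them was the same with each length.

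**Figure D2:**
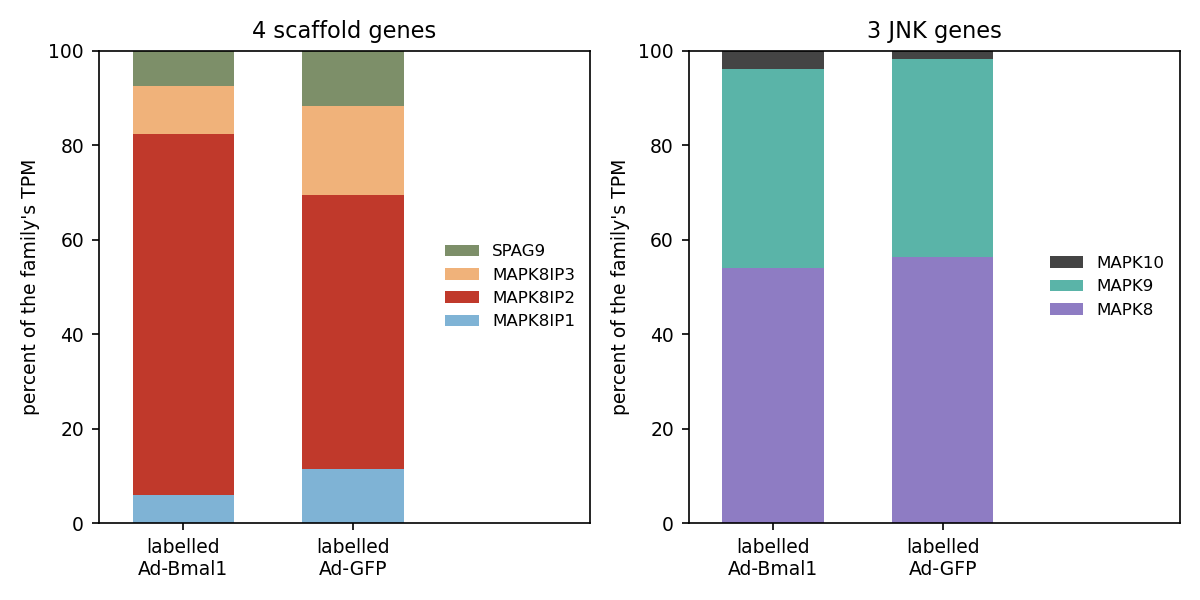
Percent of the summed TPM of the 4 scaffold genes (left panel) and the 3 JNK genes (right panel) held by each gene, in the library labelled Ad-Bmal1 (left bar) and the library labelled Ad-GFP (right bar). MAPK8IP2 filled 76.3% and 58.1% of the scaffold bars, while MAPK8 and MAPK9 filled nearly all of the JNK bars. The difference between the MAPK8IP2 shares restates the ratio on which the set was chosen.

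Both ubiquitous JNK genes were lower in the library labelled Ad-Bmal1. MAPK8 (ENSG00000107643, chromosome 10, 48306639 to 48439360), which encodes JNK1, had 573 counts in the library labelled Ad-Bmal1 and 761 in the library labelled Ad-GFP, a ratio of 0.770 (0.690 to 0.860). MAPK9 (ENSG00000050748, chromosome 5, 180233143 to 180292099), which encodes JNK2, had 356 counts in the library labelled Ad-Bmal1 and 452 in the library labelled Ad-GFP, a ratio of 0.806 (0.699 to 0.928). Neither difference approached 2-fold. Together the pair had a ratio of 0.784 (0.719 to 0.854).

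MAPK10 (ENSG00000109339, chromosome 4, 85990007 to 86594625), which encodes JNK3 and is known mainly from brain, heart and testis, went the other way at a trace level. It had 61 counts in the library labelled Ad-Bmal1 and 35 in the library labelled Ad-GFP, a ratio of 1.78 (1.16 to 2.78). At these counts the interval spanned values on both sides of 2-fold. At its ends MAPK10 overlaps ARHGAP24 and PTPN13 on the opposite strand. Without a stated strand setting, reads within those overlaps cannot be told apart. The PTPN13 row had 179 counts in the library labelled Ad-Bmal1 and 135 in the library labelled Ad-GFP. The ARHGAP24 row had 29 and 28 in the same libraries. The part of shared reads in the MAPK10 ratio was not tested.

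Per length MAPK10 was a small part of JNK expression, with 0.732 TPM in the library labelled Ad-Bmal1 and 0.403 TPM in the library labelled Ad-GFP. That was 3.89% and 1.75% of the summed JNK TPM in the same libraries. MAPK8 had 10.2 TPM in the library labelled Ad-Bmal1 and 13.0 TPM in the other, and MAPK9 had 7.93 and 9.67 TPM in the same libraries. MAPK8 was above MAPK9 with the longest coding transcript as length, and below it with the median coding transcript (6.06 and 9.35 TPM in the library labelled Ad-Bmal1, 7.78 and 11.5 TPM in the other). The order of JNK1 and JNK2 transcripts therefore rests on the length chosen. Summed over the 3 JNK genes, counts were 990 in the library labelled Ad-Bmal1 and 1248 in the library labelled Ad-GFP, a ratio of 0.812 (0.746 to 0.883).

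The MAP2K genes, whose products phosphorylate JNK, differed in opposite directions. MAP2K4 (ENSG00000065559, chromosome 17, 12020824 to 12143830) encodes MKK4, which acts on both JNK and p38, and had 114 counts in the library labelled Ad-Bmal1 and 154 in the library labelled Ad-GFP. Its ratio was 0.757 (0.589 to 0.971), and 0.753 (0.586 to 0.965) with its pseudogene MAP2K4P1 added. MAP2K7 (ENSG00000076984, chromosome 19, 7903843 to 7914478) encodes MKK7, which acts on JNK alone, and had 2077 counts in the library labelled Ad-Bmal1 and 1873 in the library labelled Ad-GFP. Its ratio was 1.13 (1.07 to 1.21). MAP2K7 accounted for 95.3% of the summed MAP2K4 and MAP2K7 TPM in the library labelled Ad-Bmal1 and 93.2% in the library labelled Ad-GFP.

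MAP3K11 (ENSG00000173327, chromosome 11, 65597755 to 65615382) encodes the mixed-lineage kinase MLK3, which phosphorylates both MAP2Ks and is known to bind JIP scaffolds. It had 3596 counts in the library labelled Ad-Bmal1 and 2879 in the library labelled Ad-GFP, a ratio of 1.28 (1.22 to 1.34). Per length it stood at 108 TPM in the library labelled Ad-Bmal1 and 83.1 TPM in the library labelled Ad-GFP. With MAPK8IP2 (121 and 51.4 TPM in those libraries) and MAP2K7 (65.0 and 56.2 TPM) it formed the abundant part of the set, and no other member was above 16.7 TPM. At this length MAPK8IP2 was the highest of the trio in the library labelled Ad-Bmal1 and the lowest in the library labelled Ad-GFP. The order within this trio also rests on length: with the median coding transcript, MAP3K11 (118 TPM in the library labelled Ad-Bmal1) stood above MAPK8IP2 (67.3 TPM).

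Over the 10 members 5 ratios were above 1 and 5 below. Of these 1, MAPK8IP2, was at least 2-fold higher with an interval that excluded 1, against 1.13% of all measured genes, and that count was set by how the members were chosen. None was at least 2-fold lower, against 1.74% of measured genes. Counting intervals lay above 1 for 5 members, MAPK8IP2, MAPK10, MAP2K7, MAP3K11 and SPAG9, against 23.8% of measured genes. MAPK8IP2 was there by the choice of the set, and without it 4 of 9 lay above 1. Counting intervals lay below 1 for 3 members, MAPK8, MAPK9 and MAP2K4, against 21.6%. The tally over all 10 members rests on scaling: with total counts it was 4 above and 3 below, with the length trend removed 4 and 4, and with length and GC trends removed 4 and 3. Intervals excluded 1 for 45.4% of all measured genes. Intervals narrow with counts: of 5658 genes with 1000 or more counts, 2103 lay above 1 and 1560 below. The shares over all measured genes, many at lower counts, are therefore an uneven background for the members. The median log2 ratio was 0.06 over the members, -0.05 over the 9 without MAPK8IP2, and 0.00 over all measured genes. Of the members 8 were within 1.5-fold of equality, as were 88.3% of measured genes and 96.2% of those with 1000 or more counts.

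**Figure D3:**
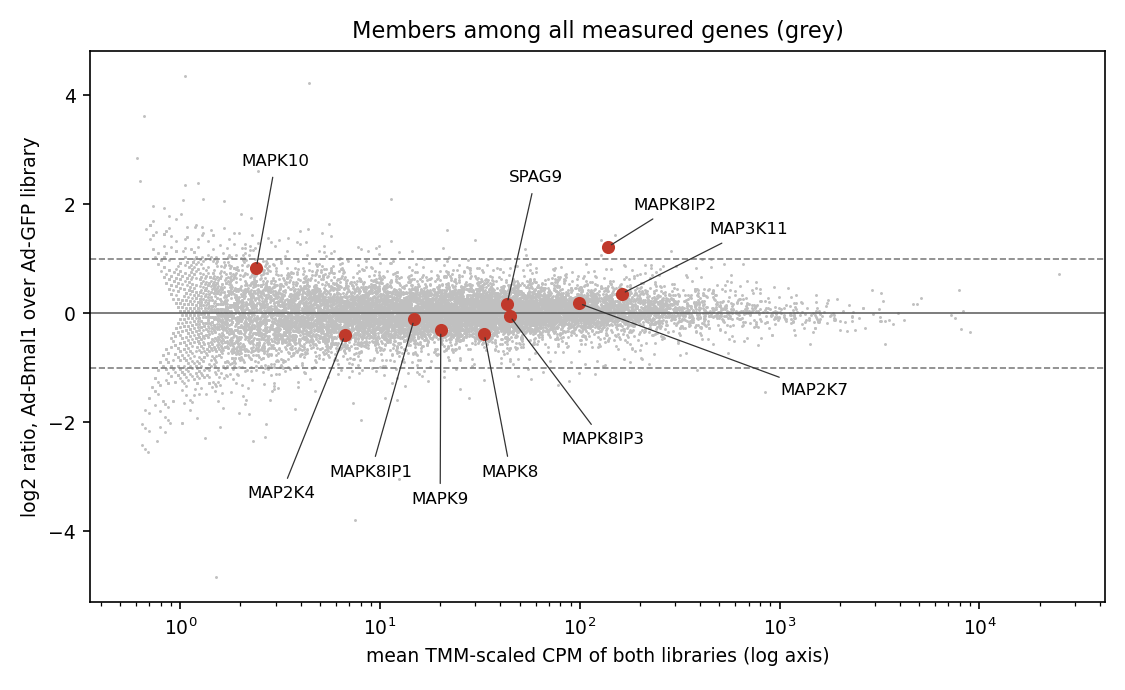
Log2 ratio of the library labelled Ad-Bmal1 over the library labelled Ad-GFP against mean TMM-scaled CPM (log axis) for the 13231 measured genes (grey) and the 10 members (red), with dashed lines at 2-fold. MAPK8IP2 lies above the upper line at high abundance and the other 9 members lie between the lines.

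Longer transcripts tended to have higher ratios in these libraries (Pearson r = 0.26 and Spearman rho = 0.28 across 11217 genes with 100 or more counts, which are not independent). Ratios showed little relation to transcript GC content (r = -0.06, rho = -0.04). With a smooth trend on length removed, MAPK8IP2 kept a ratio of 2.31, MAP3K11 1.26 and MAP2K7 1.13. MAPK8, MAPK9 and MAP2K4 stood at 0.713, 0.769 and 0.742. SPAG9, with a transcript of 8273 bases, moved to 0.995 (0.904 to 1.09), on the other side of 1. MAPK8IP3 moved to 0.903 (0.822 to 0.992), an interval that then excluded 1. MAPK10 moved to 1.56, and its transcript length is uncertain, since its longest coding transcript has 8941 bases and its median coding transcript 2590.

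**Figure D4:**
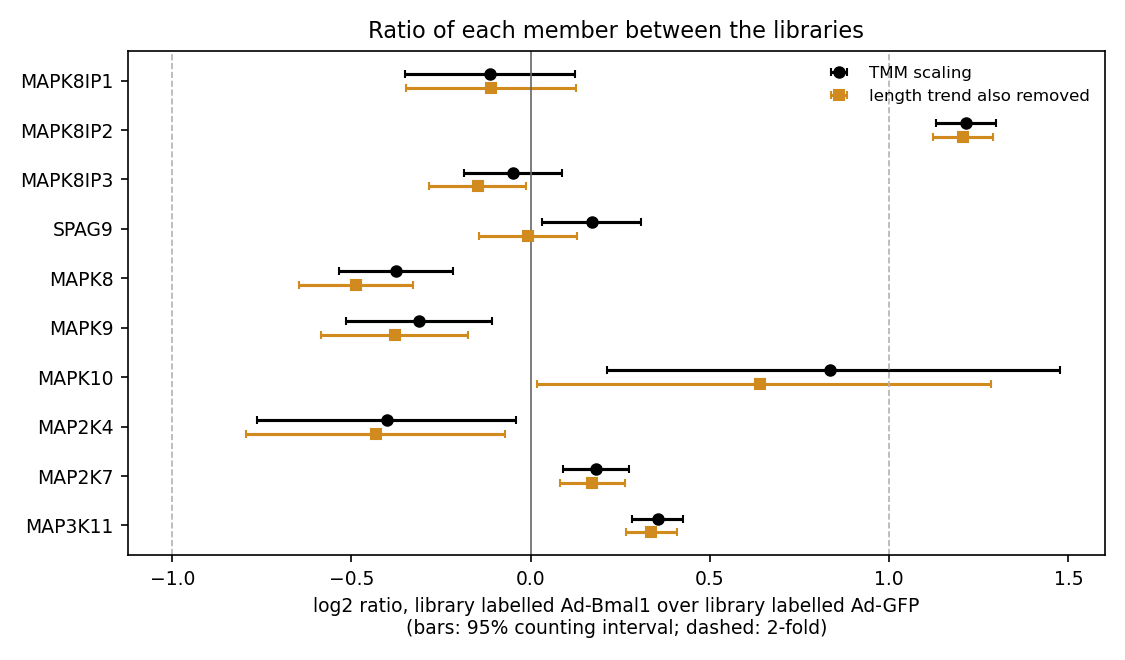
Log2 ratio of the library labelled Ad-Bmal1 over the library labelled Ad-GFP for each member with its 95% counting interval, after TMM scaling (black circles) and with the trend on transcript length also removed (orange squares), with dashed lines at 2-fold. MAPK8IP2 lies beyond 2-fold under both, and SPAG9 changes side.

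Genes near MAPK8IP2 on chromosome 22 were examined because overlapping genes can exchange reads. CHKB, which encodes a choline kinase, overlaps its start on the opposite strand and had 7 counts in the library labelled Ad-Bmal1 and 5 in the library labelled Ad-GFP. How reads on overlapping genes were counted is not stated, so these counts may not hold all reads of CHKB. Within 200 kb of MAPK8IP2, 14 other genes were measured. The nearest measured protein-coding genes on either side were ODF3B and ARSA, which encodes arylsulfatase A. Their ratios were 1.09 (0.885 to 1.35) and 1.10 (1.01 to 1.21). Farther out, SBF1 had 1.16 (1.12 to 1.20), and SHANK3, a synaptic scaffold gene, had 1.07 (0.976 to 1.18). Among the 10 protein-coding ones the highest ratio was that of TYMP, thymidine phosphorylase, with 1872 counts in the library labelled Ad-Bmal1 and 1250 in the library labelled Ad-GFP (1.53, 1.43 to 1.65). Higher ratios, at low counts, belonged to the antisense genes CHKB-DT and ENSG00000272821. CHKB-DT, closer to MAPK8IP2 than ODF3B, had 59 counts in the library labelled Ad-Bmal1 and 29 in the other (2.08, 1.31 to 3.37). ENSG00000272821 had 26 and 12 in the same libraries (2.22, 1.08 to 4.82).

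With 2 libraries, likeness of pattern reduces to likeness of ratio. Among protein-coding genes with 500 or more counts in each library, the 6 nearest to MAPK8IP2 in log2 ratio were PRRC2C, HSPG2, CRISPLD2, MICB, VCAN and IGF2R. PRRC2C was the nearest, at 2.26 (2.06 to 2.48), and the others ran from 2.00 for IGF2R, a lysosomal enzyme receptor, to 2.53 for CRISPLD2. These ratios are without the length trend removed, and the part of transcript length in them was not tested. HSPG2 and VCAN encode the matrix proteoglycans perlecan and versican, and MICB encodes a stress ligand of natural killer cells.

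Around the 10 members, 109 related genes were listed by role, of which 97 were measured, and none was 2-fold higher or lower. Over all measured genes, 1.13% were at least 2-fold higher and 1.74% at least 2-fold lower, with an interval that excluded 1. Of the 97, 49 had ratios above 1 and 48 below, with 28 counting intervals above 1 and 20 below and a median log2 ratio of 0.02. As shares these are 28.9% and 20.6%, beside 23.8% and 21.6% of all measured genes. Such shares depend on counts: of the 5658 genes with 1000 or more counts, 2103 intervals lay above 1 and 1560 below. No measured gene of these lists matched the size of the difference at MAPK8IP2, which was chosen for its ratio. With 2-fold differences that rare over all genes, their absence among 97 is not a trait of the lists. Genes named below without a place among the 2 most abundant of their list were picked after their values were seen.

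Upstream, all 17 other MAP3K genes listed were measured, with 3 intervals above 1, 2 below and a median log2 ratio of 0.06. The most abundant were TAOK2 at a ratio of 1.14 (1.06 to 1.23) and MAP3K9, another mixed-lineage kinase, at 1.15 (1.07 to 1.25), which was 0.945 with length and GC trends removed. MAP3K3 had 657 counts in the library labelled Ad-Bmal1 and 990 in the library labelled Ad-GFP, a ratio of 0.679 (0.614 to 0.750), and MAP3K13 had 0.706 (0.622 to 0.802). Among 14 measured GTPases and other inputs, intervals lay above 1 for 4 and below for 1, with a median of 0.00. The GTPase genes RHOA and CDC42 were at 0.985 (0.961 to 1.01) and 0.987 (0.959 to 1.02), both intervals that included 1. TNIK, a MAP4K-family kinase, was at 1.56 (1.39 to 1.75), and GADD45B, a stress-induced activator of MAP3K4, at 0.672 (0.615 to 0.734). With length and GC trends removed TNIK was at 1.40 and GADD45B at 0.714.

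Genes of JIP cargo, motors and binding partners gave 19 measured members of 24, with 6 intervals above 1, 3 below and a median log2 ratio of -0.04. APP, the amyloid precursor that JIP1 links to kinesin, was at 1.07 (1.05 to 1.09), and its relative APLP2 at 0.993 (0.970 to 1.02). Of the kinesin light chain genes, KLC2 was at 1.28 (1.17 to 1.40) and KLC4 at 0.851 (0.746 to 0.970), with trends removed 1.26 and 0.865. KLC1 and KLC3 had intervals that included 1 and changed sides with trends removed. LRP1, an endocytic receptor gene, had 6321 counts in the library labelled Ad-Bmal1 and 3708 in the library labelled Ad-GFP, a ratio of 1.74 (1.67 to 1.82) that was 1.40 with length and GC trends removed. LRP2, which encodes megalin, had no count in either library, which allows up to 0.151 CPM in the library labelled Ad-Bmal1 and 0.148 CPM in the other by counting error.

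Other scaffolds and adaptors of the pathway gave 10 measured members of 11, with 5 intervals above 1, 3 below and a median of 0.13. That median was 0.02 with length and GC trends removed. FLNA, an actin crosslinker, was at 1.35 (1.34 to 1.36) and GSTP1, a glutathione transferase that binds JNK, at 0.879 (0.863 to 0.895). WDR62, a JNK scaffold of the spindle pole, was at 1.46 (1.35 to 1.57), with 1696 counts in the library labelled Ad-Bmal1 and 1189 in the library labelled Ad-GFP. SH3RF2 was at 1.60 (1.42 to 1.80), while its relative SH3RF1, which encodes the scaffold POSH, was at 1.10 (0.974 to 1.24). With both trends removed FLNA was at 1.19, GSTP1 at 0.948, WDR62 at 1.40, SH3RF2 at 1.47 and SH3RF1 at 1.02.

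JNK substrates and AP-1 genes gave 18 measured members of 20, with 8 intervals above 1, 6 below and a median of 0.15. JUN, the namesake substrate, had 6472 counts in the library labelled Ad-Bmal1 and 6800 in the library labelled Ad-GFP, a ratio of 0.974 (0.941 to 1.01). JUNB, an AP-1 subunit, was at 0.637 (0.608 to 0.668), and FOSL2, another, at 1.03 (1.00 to 1.05), or 0.915 with length and GC trends removed. STMN1, a microtubule regulator, was at 0.965 (0.938 to 0.993), or 1.01 with those trends removed, and MAP1B, a microtubule-binding substrate, at 1.58 (1.30 to 1.94). With both trends removed MAP1B was at 1.32 and JUNB at 0.684.

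The phosphatases that dephosphorylate JNK gave 7 measured members of 9, with 2 intervals above 1, 1 below and a median of -0.03. DUSP1 was at 0.874 (0.804 to 0.949) and DUSP10 at 0.931 (0.860 to 1.01), and DUSP16, which is known to act on JNK and counts in both this list and that of JIP partners, at 1.22 (1.08 to 1.37). In the parallel p38 and ERK cascades 14 of 15 genes were measured, with 1 interval above 1, 4 below and a median of -0.02. MAP2K2 and MAP2K1, the ERK kinases, were at 1.13 (1.09 to 1.17) and 1.02 (0.958 to 1.08), and MAP2K1 at 0.987 with length and GC trends removed. MAP2K3, a p38 kinase, had 1647 counts in the library labelled Ad-Bmal1 and 2361 in the library labelled Ad-GFP, a ratio of 0.714 (0.670 to 0.760), and the p38 gene MAPK11 was at 0.721 (0.660 to 0.788).

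**Figure D5:**
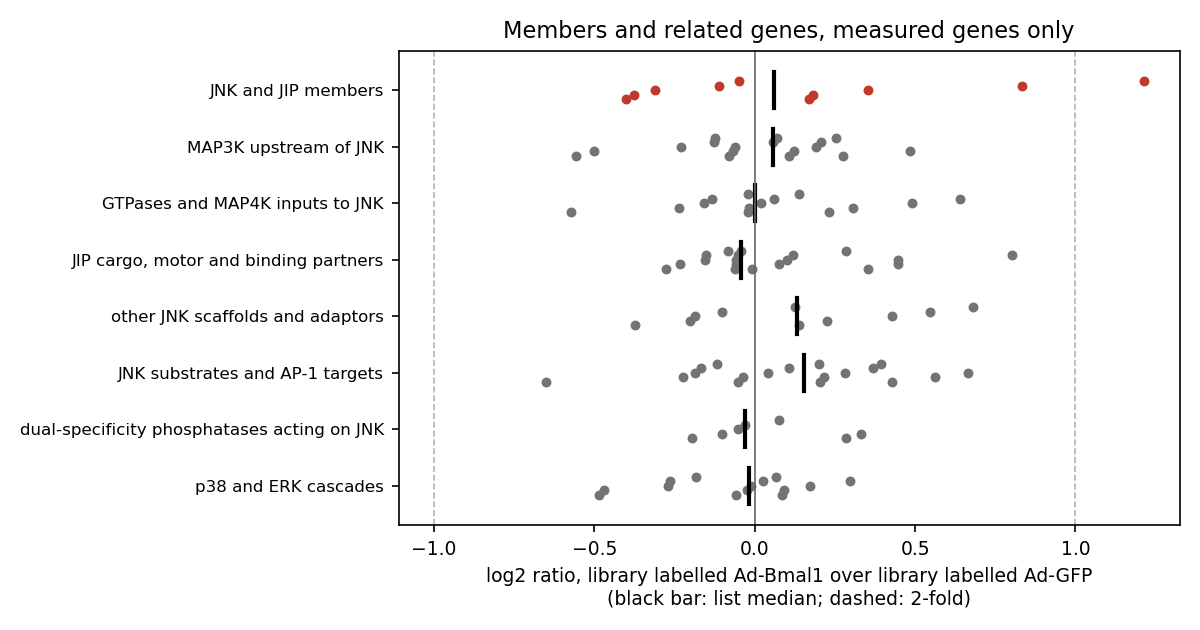
Log2 ratio of the library labelled Ad-Bmal1 over the library labelled Ad-GFP for the 10 members (red, top row) and the measured genes of 7 related lists (grey), with the median of each as a black bar and dashed lines at 2-fold. MAPK8IP2 alone lies beyond 2-fold, and the list medians run from -0.04 to 0.15.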

How the data were processed

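RNA was measured in 2 libraries, 1 per group, made from polyadenylated RNA and read in pairs of 150 bp, per the labels' protocols. The authors deposited raw, unscaled counts by Ensembl gene, judged by their whole numbers. HISAT2 and GRCh38 (hg38) are named in the submitters' processing notes, while the counting tool, strandedness and gene models they used were not stated there.

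Groups came from the sample titles. TMM scaling used edgeR 4.0.16 (R 4.3.3), with factors of 0.988 for the library labelled Ad-Bmal1 and 1.01 for the library labelled Ad-GFP, where 1 CPM was 19.8 and 20.3 counts. Ratios carry exact 95% conditional binomial (Clopper-Pearson) intervals, and shares Wilson intervals, computed with scipy 1.17.1 in Python 3.11.15. These and the floor of 3 counts cover counting error only, since 1 library per group gives no variation between cultures. Without molecular identifiers a read need not be a separate molecule, so the intervals may be too narrow even for counting error. No model with residual degrees of freedom could be fitted, so no p-value is given. Measured means 1 CPM in at least 1 library, and the size rule asks in addition for a 2-fold difference and an interval that excludes 1. TPM, position and length are from GENCODE 29 on GRCh38, which held 99.5% of the identifiers, with the longest coding transcript as length. Trends on length and GC content were cubic splines with 4 degrees of freedom over genes with 100 or more counts. The steps were checked on simulated counts.

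The members and lists were chosen with earlier results of these data known. The naming rule took all members, BMAL1, the 2 most abundant genes of each list and those that met the size rule, measured genes within 200 kb of MAPK8IP2 and the 6 genes nearest to it in ratio. No list gene met the size rule, and every other list gene or marker given with a value was picked after its value was seen. Alternatives were other scalings (total counts, upper quartile, DESeq2 1.42.0 size factors), filters, sizes, thinning, a prior count, trend removal and other lengths.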

Additional observations from a re-analysis of the deposited data

How the results depend on the processing

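The log2 ratio of MAPK8IP2 was 1.18 to 1.29 over 8 alternatives of scaling, thinning, prior count and trend removal, inside its counting interval each time. SPAG9 reversed with the length trend removed (-0.0073, against 0.17), and stood at 0.0136 with both trends removed. MAP3K11 moved beyond its interval with the GC trend removed (0.43, against 0.35). Counting intervals lay above and below 1 for 4 and 3 members with total counts, where SPAG9 no longer excluded 1, and for 4 and 4 with the length trend removed, where MAPK8IP3 did, against 5 and 3. The 2-fold counts over all measured genes were 149 higher and 230 lower. They became 292 and 382 with no filter, 21 and 38 at a minimum of 10 CPM, 583 and 648 at a 1.5-fold size, and 12 and 20 at a 4-fold size, by construction of the rules. At a 1.5-fold size 2 members were higher, with MAPK10 the addition, and at 4-fold 0 were, and under no setting was a member lower. The median of the MAP3K list was -0.11 with the length trend removed and -0.0814 at 10 CPM, that of p38 and ERK genes -0.14 with the length trend removed, and that of substrates 0.0403 at 10 CPM, and the cause was not tested. MAPK8IP2 held 72.9% of scaffold TPM in the library labelled Ad-Bmal1 and 53.6% in the library labelled Ad-GFP with all exons as length, and 72.1% and 53.2% with the median coding transcript. Leaving out a replicate was not possible with 1 library per group. No paired analysis was possible because each group has 1 library. Variation between cultures is not measured, and at trace counts, as for MAPK10, depth limits the ratio.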

Other observations

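Marker genes of the tubule differed in both directions within their lists. Of the measured proximal tubule markers, PDZK1, an apical scaffold gene, had 148 counts in the library labelled Ad-Bmal1 and 344 in the library labelled Ad-GFP (ratio 0.440, 95% counting interval 0.361 to 0.535), while GGT1, a brush border enzyme gene, was at 1.12 (1.07 to 1.16). Of the injured tubule markers, HAVCR1, which encodes KIM-1, was at 1.51 (1.38 to 1.66) and SOX9 at 1.29 (1.03 to 1.60), while LCN2, which encodes lipocalin-2, was at 0.618 (0.590 to 0.648) and VIM, which encodes vimentin, at 0.754 (0.738 to 0.769). Among hepatocyte markers, ALB, which encodes albumin, had 165 counts in the library labelled Ad-Bmal1 and 9 in the library labelled Ad-GFP (18.8, 9.64 to 41.8), and SERPINA1 was at 0.855 (0.823 to 0.888). No value here has a replicate check.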
